A study of Mus musculus with 12 samples.

Results

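The HOPS and CORVET tethering complexes are built from 8 gene products, encoded in the mouse by Vps33a, Vps11, Vps16, Vps18, Vps39, Vps41, Vps8 and Tgfbrap1. These 8 genes, taken by name as subunits, were examined among the 21887 protein-coding genes on chromosomes 1 to 19, X and Y. They were chosen with earlier results of these data known. USF2, a basic helix-loop-helix leucine zipper factor that binds the E-box hexamer, was precipitated with its bound DNA from mouse embryonic fibroblasts (MEFs) and the DNA was sequenced (ChIP-seq). The MEFs of the starved libraries were wild type and had been deprived of glucose, for a time that the labels do not give. They were set against wild-type MEFs in normal culture, with 2 libraries per condition, and every library came with its own peak list. Input libraries and libraries for the histone mark H3K27ac make up the rest of the 12 samples and were not analysed here. The labels name no separate cultures behind the libraries, and peak lists hold no expression values with which the fibroblast label could be checked.

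HOPS and CORVET are elongated complexes of 6 subunits each that hold 2 membranes together before they fuse. Both are built on the same core of 4 proteins, Vps11, Vps16, Vps18 and Vps33a. CORVET adds Vps8 and Tgfbrap1 and acts on early endosomes, while HOPS adds Vps39 and Vps41 and acts where late endosomes and autophagosomes fuse with lysosomes. Small GTPases of the Rab and Arl families recruit the complexes, and Vps33a, a Sec1/Munc18 protein, guides the assembly of the SNARE proteins that drive fusion.

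USF2 peaks were found at 4 of the 8 genes, at Vps33a, Vps11 and Vps8 in all 4 lists and at Vps16 in the normal lists alone. The other core gene Vps18, both HOPS-specific genes and Tgfbrap1 had no peak at a gene end in any list. A gene counted as called in a list when the summit of a peak, its highest point, lay within 1000 bp of either end of the annotated gene. In the starved lists 3 of the 8 genes were called in each list, against 2.01% and 2.30% of all protein-coding genes. In the normal lists 4 of the 8 were called in each list, against 2.54% and 2.68% of all protein-coding genes. Calls in both starved lists were made at 3 of the 8, against a background of 1.78%, and calls in both normal lists at 4 of the 8, against 2.19%. All 4 lists called 3 of the 8 genes and 1.13% of all genes, and any list called 4 of the 8 and 4.05% of all genes. Since the 8 genes were chosen with earlier results known, their shares were not tested against those of all genes. By role, the core had 3 of its 4 genes called in some list, the CORVET pair 1 and the HOPS pair 0. None of the 8 genes had a peak inside the gene more than 1000 bp from both of its ends, against 6.65% of all genes.

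Before the values themselves, the lists of each condition were set against each other. The number of reads piled up at a summit was recovered for every peak from its deposited fold enrichment and p-value, and the lists were compared by the squared difference of 2 overlapping peaks' reads divided by their sum. This index averages about 1 for independent counts of equal depth and can be had only where both lists called a peak. It was 0.161 over 543 overlapping peak pairs of the starved lists and 0.107 over 1053 pairs of the normal lists. The 4 pairings across conditions gave 1.10 to 1.22. Depth is not given and peak widths differ between conditions, so the values across conditions do not measure sampling noise alone. Where a pair of peaks summed to at least 30 reads, the index was 0.214 for the starved and 0.147 for the normal lists, against 1.27 to 1.42 across conditions. The recovered reads were identical in 30.8% of the starved and 45.5% of the normal pairs, against 5.50% to 8.43% across conditions. The lists of a condition thus differed by less than sampling noise and were counted as 1 sample each, although their lengths were not the same (825 and 1178 peaks starved, 1645 and 2124 peaks normal, on the assembled chromosomes). Values of both lists are given below, and agreement between them is not independent replication. With 1 sample per condition no test between conditions was possible.

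**Figure D1:**
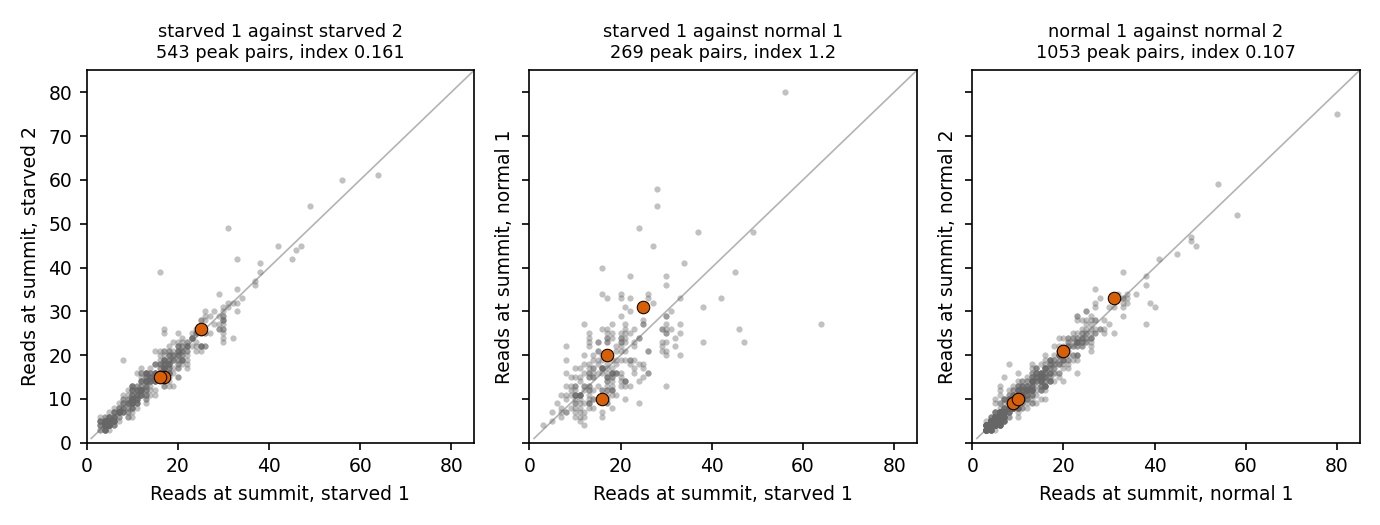
Reads at the summits of overlapping peaks (points) in the starved pair, in a pair across conditions and in the normal pair; both axes are recovered read counts, the line marks equality, and orange points are the HOPS and CORVET genes. Points hug the line within a condition (index 0.161 and 0.107) and scatter across conditions (index 1.20).

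Vps33a carried the strongest USF2 peaks of the group. Fold enrichment, given by the authors' caller, is the ratio of summit pileup to local background with 1 added to both. At Vps33a it was 14.8 and 9.72 in the starved lists and 14.6 and 21.3 in the normal lists. The −log10 q of these peaks was 24.2 and 16.7 in the starved lists and 27.5 and 39.8 in the normal lists. Within their own lists, ordered by fold enrichment, they ranked 21 of 825 and 98 of 1178 (starved) and 48 of 1645 and 10 of 2124 (normal). The summits held 25 and 26 reads in the starved lists (95% exact Poisson intervals 16.2 to 36.9 and 17.0 to 38.1) and 31 and 33 reads in the normal lists (21.1 to 44.0 and 22.7 to 46.3). The reads of the paired lists were thus nearly equal, and the fold enrichments differed with the local background, which was 0.76 and 1.78 reads in the starved lists and 1.19 and 0.59 reads in the normal lists. All intervals cover counting error only. The narrowest peak was 306 bp in both starved lists and 152 bp in both normal lists, and sequencing depth is not given. Reads at the summit of a gene are therefore not compared between conditions.

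The peaks lay across the start of Vps33a, a gene of 44287 bp on the minus strand (GRCm38, chr5:123528757-123573043). All 4 peaks shared an interval of 249 bp (chr5:123572907-123573155), and no other annotated gene had an end within 1000 bp of a summit. Relative to the transcript start in the RefSeq promoter table (position 123573015), the summits lay 89 bp downstream and 25 bp upstream in the starved lists and 11 bp downstream and 26 bp upstream in the normal lists.

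The promoter windows of 6 of the 8 genes were found in the RefSeq table of GRCm38.p6. Vps11 and Vps39 had no window there, so no sequence of theirs was searched. Each window holds 300 bases, 250 before the transcript start and 50 from it, and Tgfbrap1 has a window for each of 2 starts. The windows of the 3 called genes in the table are printed 5′ to 3′ to show what lies under their peaks, and a window of Tgfbrap1 is added because it holds the same hexamer without a peak. This window was picked after its sequence had been seen. The windows were searched for the E-box hexamer CACGTG, which reads the same on both strands, and for the related CACATG on either strand. Capitals mark every match, and all matches in these windows are CACGTG.
Vps33a (chr5:123572966-123573265, minus strand): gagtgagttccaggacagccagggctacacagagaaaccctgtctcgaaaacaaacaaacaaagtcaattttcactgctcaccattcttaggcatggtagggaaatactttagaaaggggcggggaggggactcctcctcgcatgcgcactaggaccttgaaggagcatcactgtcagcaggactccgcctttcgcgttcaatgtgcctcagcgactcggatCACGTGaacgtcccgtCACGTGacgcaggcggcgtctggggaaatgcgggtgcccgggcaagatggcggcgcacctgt
Vps16 (chr2:130424070-130424369, plus strand): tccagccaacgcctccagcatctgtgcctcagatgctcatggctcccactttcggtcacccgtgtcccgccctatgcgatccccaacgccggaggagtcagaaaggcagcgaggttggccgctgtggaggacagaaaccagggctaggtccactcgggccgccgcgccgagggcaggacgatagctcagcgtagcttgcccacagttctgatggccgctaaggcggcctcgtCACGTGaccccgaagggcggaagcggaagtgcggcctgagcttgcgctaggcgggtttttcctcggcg
Vps8 (chr16:21422868-21423167, plus strand): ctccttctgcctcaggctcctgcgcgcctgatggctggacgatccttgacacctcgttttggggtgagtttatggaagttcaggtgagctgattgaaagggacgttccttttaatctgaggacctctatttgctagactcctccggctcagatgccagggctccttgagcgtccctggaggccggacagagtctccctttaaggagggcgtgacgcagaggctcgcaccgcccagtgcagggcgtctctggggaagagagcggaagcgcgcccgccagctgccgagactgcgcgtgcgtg
Tgfbrap1, inner start (chr1:43092437-43092736, minus strand): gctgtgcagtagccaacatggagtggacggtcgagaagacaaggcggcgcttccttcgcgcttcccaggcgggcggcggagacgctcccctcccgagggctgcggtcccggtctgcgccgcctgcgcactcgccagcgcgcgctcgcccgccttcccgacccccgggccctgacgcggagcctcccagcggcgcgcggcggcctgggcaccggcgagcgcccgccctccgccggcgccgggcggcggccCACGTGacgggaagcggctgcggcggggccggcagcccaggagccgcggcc

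The Vps33a window held 2 copies of CACGTG, whose first bases lie 28 and 12 bp upstream of the transcript start (chr5:123573038-123573043 and chr5:123573022-123573027). Both copies lay inside all 4 peaks. The summits of starved 2 and normal 2 fell within the copy farther from the start, and those of starved 1 and normal 1 lay 96 and 18 bp from the nearer copy. The Vps16 window held 1 copy, 18 bp upstream of the start (chr2:130424302-130424307), and the Vps8 window held neither hexamer. Of the genes without a peak, Tgfbrap1 had 1 copy of CACGTG across its inner start (chr1:43092482-43092487) and no match in its outer window. Vps41 had CACATG just after its start (chr13:18717294-18717299), and Vps18 had neither hexamer. Among all 32851 promoter windows, 7.15% held CACGTG and 14.2% held CACATG. Windows with a summit in both lists of a condition held CACGTG in 88.9% of 253 cases for the starved lists and in 70.2% of 336 cases for the normal lists. The same windows held CACATG in 14.2% of cases for the starved and 14.3% for the normal lists, equal or close to its share of all windows. A match describes the letters of a window and does not locate binding.

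**Figure D2:**
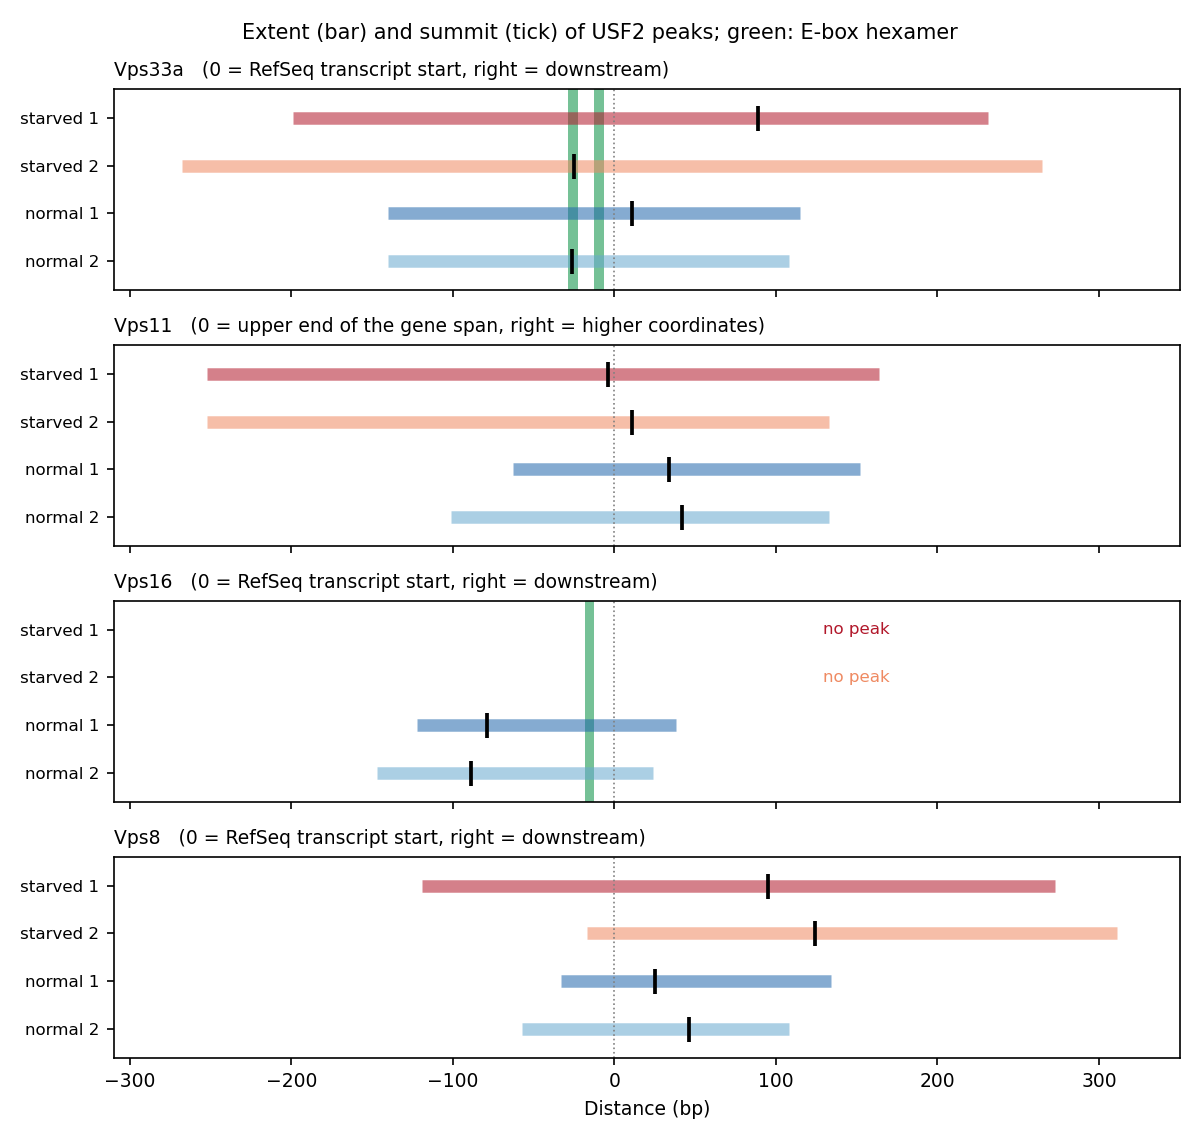
Extent (coloured bar) and summit (black tick) of the USF2 peaks at the 4 called genes, by list from starved to normal. The horizontal axis is the distance in bp from the RefSeq transcript start, or for Vps11 from the upper end of the gene span. Green bands mark CACGTG in the promoter windows, and Vps11 had no window to search. Peaks of the starved lists are wider, both E-boxes of Vps33a lie inside all 4 peaks, and Vps16 has peaks in the normal lists alone.

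Vps11, a scaffold subunit of the core with a RING domain, had a peak at the upper end of its span of 13925 bp (GRCm38, chr9:44347749-44361673). Its fold enrichment was 6.60 and 5.76 in the starved lists and 8.46 and 8.86 in the normal lists, with −log10 q of 7.49 and 5.51 in the starved and 11.6 and 12.7 in the normal lists. The ranks were 270 of 825 and 471 of 1178 in the starved lists and 216 of 1645 and 255 of 2124 in the normal lists. The starved peaks stood at the 67.2 and 60.0 percentile of fold enrichment in their lists, and the normal peaks at the 86.9 and 88.0 percentile of theirs. Ordered by −log10 q instead, the percentiles were 73.5 and 69.9 in the starved and 88.7 and 91.5 in the normal lists. The lists differ in length, so these percentiles do not measure a change between conditions. The summits held 17 and 15 reads in the starved lists (95% exact Poisson intervals 9.90 to 27.2 and 8.40 to 24.7) and 20 and 21 reads in the normal lists (12.2 to 30.9 and 13.0 to 32.1). The intervals of the conditions overlapped, but with peak widths that differ and depth unknown this does not compare the conditions. The summits lay within 46 bp of each other and at most 42 bp from the gene end, and the 4 peaks shared 197 bp (chr9:44361610-44361806). No other gene had an end within 1000 bp of them.

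Vps16, which binds Vps33a and anchors it in the core, had a peak in the normal lists and none in the starved lists. Its fold enrichment was 6.28 in both normal lists, with −log10 q of 4.41 and 4.60 and ranks of 467 of 1645 and 687 of 2124. Both summits held 9 reads over a background of 0.59 reads, with a 95% exact Poisson interval of 4.12 to 17.1 for the 9 reads. The summits lay 79 and 89 bp upstream of the Vps16 start and 61 and 71 bp from the CACGTG of the printed window, which both peaks contained. The span of Pced1a ends 322 bp inside that of Vps16 (chr2:130417683-130424641 for Pced1a, chr2:130424320-130444269 for Vps16), and the summits lay within 1000 bp of an end of both genes. The region therefore cannot be assigned to either gene. A missing peak means that the caller's threshold was not passed, and the lowest −log10 q in the starved lists was 1.35 and 1.30. Peak widths differed between the conditions, with narrowest peaks of 306 bp in both starved lists and 152 bp in both normal lists, and whether this bears on the missing Vps16 calls was not tested. Sequencing depth is not given in the sources used here.

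Vps8, the CORVET subunit whose yeast counterpart binds the Rab5 homologue Vps21, was the one called gene outside the core. Its fold enrichments were 6.85 and 7.05 in the starved lists and 6.56 in both normal lists, the narrowest range of the 3 genes called in all 4 lists. The −log10 q was 7.50 and 7.47 in the starved and 5.04 and 5.23 in the normal lists, and the ranks were 244 of 825 and 259 of 1178 (starved) and 394 of 1645 and 582 of 2124 (normal). The summits held 16 and 15 reads in the starved lists (95% exact Poisson intervals 9.15 to 26.0 and 8.40 to 24.7) and 10 reads in both normal lists (4.80 to 18.4). These intervals overlapped, which again does not compare the conditions. All summits lay downstream of the start of this gene of 221564 bp (GRCm38, chr16:21423118-21644681), by 95 and 124 bp in the starved lists and by 25 and 46 bp in the normal lists. The starved summits thus lay farther downstream than the normal ones, but with 1 sample per condition this order was not tested. At Vps33a the summits of the 2 starved lists themselves lay 89 bp downstream and 25 bp upstream of the start. The 4 Vps8 peaks shared 126 bp (chr16:21423101-21423226). The promoter window printed for Vps8 ends at position 21423167, before the starved summits, so it covers the peaks in part. No other gene had an end within 1000 bp of the summits.

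**Figure D3:**
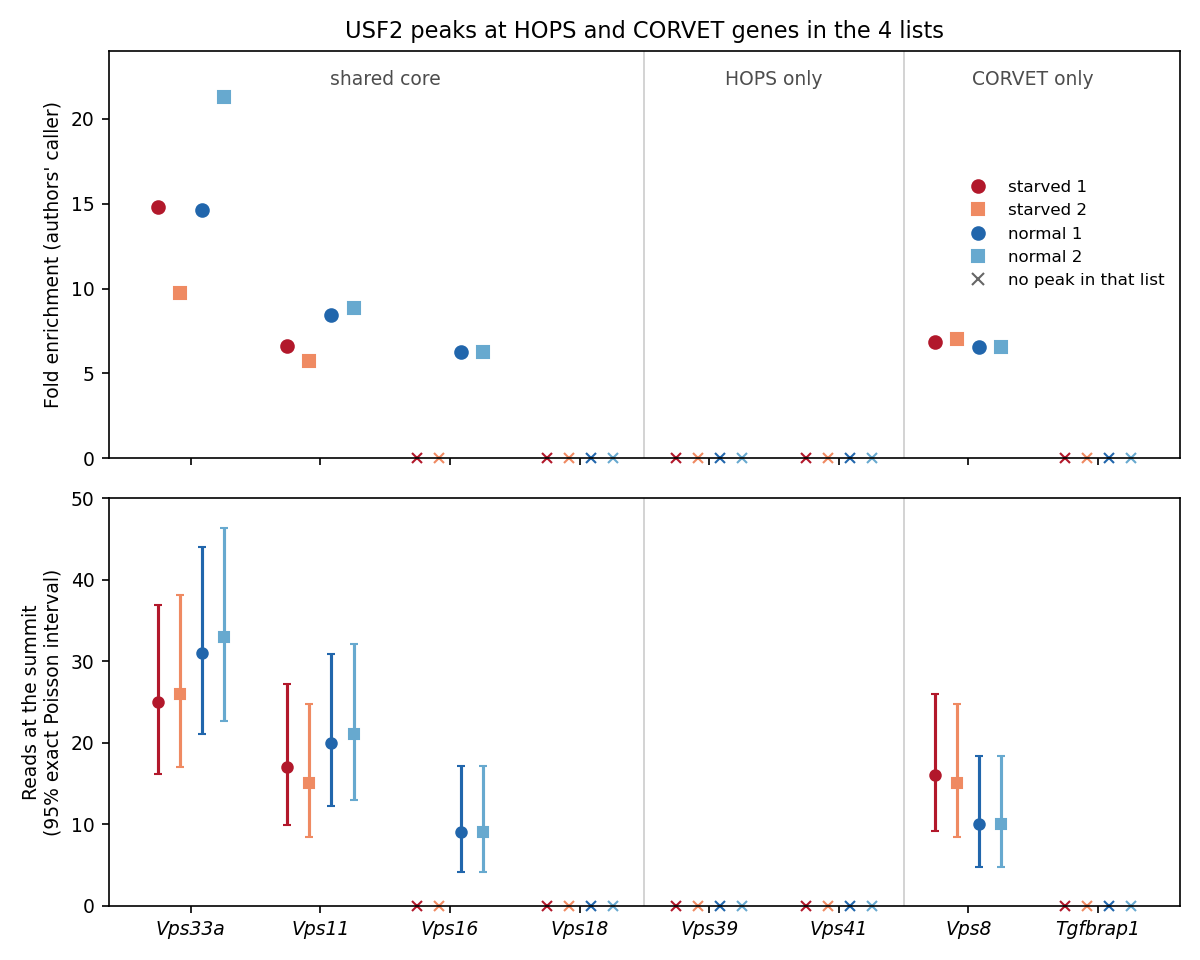
Fold enrichment (top) and recovered reads at the summit with 95% exact Poisson intervals (bottom) for the 8 genes in the 4 lists, starved lists (red) left of normal lists (blue); crosses on the axis mark a list without a peak and are not a measured 0. Vps33a is highest in every list, Vps16 is called in the normal lists alone, and Vps18, Vps39, Vps41 and Tgfbrap1 have crosses throughout.

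Vps33a stood above the other called genes in each list, and the order below it changed. In the starved lists Vps8 (6.85 and 7.05) came before Vps11 (6.60 and 5.76), whereas in the normal lists Vps11 (8.46 and 8.86) came before Vps8 (6.56 in both) and Vps16 (6.28 in both). Fold enrichment also depends on the local background, and by reads at the summit Vps11 stood above Vps8 in starved 1 and both normal lists and level with it in starved 2, at 15 reads each. Neighbours in the order by reads had overlapping Poisson intervals in every list. In the normal lists the read intervals of Vps33a lay above those of Vps8 and Vps16 without overlap, while in the starved lists those of Vps33a and Vps8 overlapped. Over all peaks at gene ends the median fold enrichment was 7.03 and 6.81 in the starved lists and 7.41 and 7.53 in the normal lists. Vps33a lay above these medians in all 4 lists and Vps11 in the normal lists only. Vps16 lay below them where it was called, while Vps8 lay below in 3 lists and above in starved 2. Fold enrichments of separately called lists were not compared between conditions as a change in binding.

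**Figure D4:**
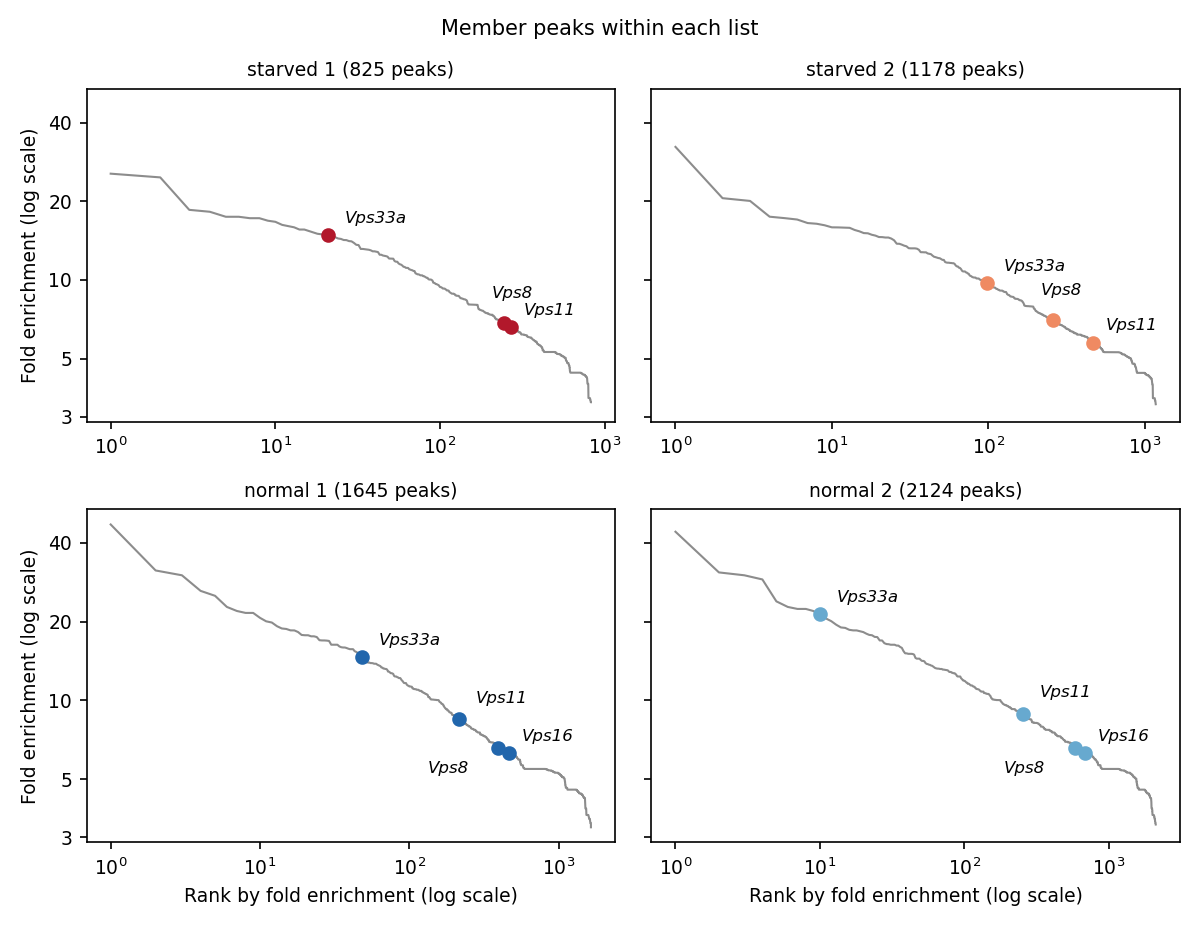
Fold enrichment of every peak against its rank within its list (grey line, both axes logarithmic), one panel per list with starved lists above normal lists; coloured points are the peaks of the called HOPS and CORVET genes. Vps33a sits near the top of each curve (ranks 21, 98, 48 and 10 in the order starved 1, starved 2, normal 1 and normal 2), and the other called genes sit farther down each curve, at the 60.0 to 88.0 percentile.

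The 4 genes without a call were far from any peak. Vps18, the other RING-domain subunit of the core (GRCm38, chr2:119288742-119298453), was 52242 bp from the nearest summit of any list, a peak of normal 1 with fold enrichment 7.36. Vps39 (chr2:120316461-120353142) and Vps41 (chr13:18717292-18866811), which bind the Rab7 homologue Ypt7 in yeast, were 208567 and 448089 bp from the nearest summit. Tgfbrap1, the mammalian counterpart of yeast Vps3 (chr1:43047200-43098712), was 229502 bp from it. These distances also cover the interior of the genes, so the 149520 bp of Vps41 contained no summit. The absence of a call does not measure the absence of binding.

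For the 3 genes called in all 4 lists, the pattern over the lists was set beside that of the 246 other protein-coding genes called in all 4, by the summed absolute difference in percentile of fold enrichment. The genes nearest to Vps33a were Mfsd1, a gene of the major facilitator family of transporters (sum 4.08 percentile points, fold enrichments 15.4 and 11.0 starved, 15.2 and 17.5 normal), then Ctsa and Neurl2 at 8.68 points. Ctsa encodes cathepsin A, and both genes had 12.5 and 11.3 in the starved lists and 30.1 in the normal lists. Nearest to Vps11 were Hnrnpm and Marchf2 at 9.53 points, both with 6.31 and 5.94 in the starved lists and 8.69 and 8.23 in the normal lists, and Phf20 at 13.5 points. Nearest to Vps8 were 1110038F14Rik (8.13), the kinase gene Map2k2 (16.6) and Thrap3 (17.5 points). Ctsa and Neurl2 had identical values in every list, as did Hnrnpm and Marchf2. Each of these pairs may stand for a single region shared by both genes, and their positions were not compared. This likeness is over 4 lists that count as 2 samples and is given as a description.

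The complexes work with Rab and Arl GTPases, adaptors, SNAREs and other Sec1/Munc18 proteins, and 48 such genes in 4 lists were examined in the same way. Of these 48, 7 were called in some list (14.6%, against the 4.05% of all genes given above), 6 in both starved lists (12.5%, against 1.78% of all genes), 3 in both normal lists (6.25%, against 2.19%) and 3 in all 4 lists (6.25%, against 1.13%). Without normal replicate 2, the remaining normal list called 5. Of 14 genes of GTPases and their exchange factors 3 were called in some list, of 12 adaptors and effectors 1, of 14 SNARE and SNARE-recycling genes 3, and of 8 related Sec1/Munc18 and CHEVI genes 0. Vps33b and Vipas39, the Vps33a and Vps16 relatives that form CHEVI, were thus without a call.

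Among the upstream regulators, Rmc1, a subunit of the Mon1–Ccz1 complex that activates Rab7, had the highest fold enrichment of the GTPase and exchange factor genes in each list, with 11.6 and 11.4 in the starved and 10.1 and 9.71 in the normal lists. Its summits held 32 reads in both starved lists and 24 and 26 reads in the normal lists. Rab5a, the early endosome GTPase, was called in the starved lists alone, with fold enrichments of 5.92 and 4.97 and 21 reads at both summits. Ccz1 was called in normal 1 alone (fold enrichment 4.39, 6 reads), in a region shared with the annotated genes Gm24311 and Gm33427. Bloc1s1, a subunit of the BORC complex that brings Arl8 to lysosomes, had 8.47 and 10.3 in the starved lists and 7.79 in normal 1, and no peak in normal 2.

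Of the SNARE genes, Vti1a had fold enrichments of 12.4 and 12.3 in the starved lists (16 and 17 reads) and 7.55 in both normal lists (12 reads each). An end of Zdhhc6 was within 1000 bp of its summits too. Stx6, a SNARE of endosomes and the trans-Golgi network, had 6.85 and 8.81 in the starved lists and 7.25 and 7.32 in the normal lists. Napa, which encodes the alpha-SNAP protein that helps to take spent SNARE complexes apart, was called in the starved lists alone, with 10.3 and 9.80 (22 and 20 reads). Calls limited to 1 condition thus occurred in both directions, at Rab5a and Napa in both starved lists, at Vps16 in both normal lists and at Ccz1 in normal 1. Over all protein-coding genes, 390 were called in both starved lists and 480 in both normal lists, but only 247 in all 4 lists. Calls not shared by all lists were therefore frequent over all genes and are not particular to those named here. No difference between conditions was tested for these genes.

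**Figure D5:**
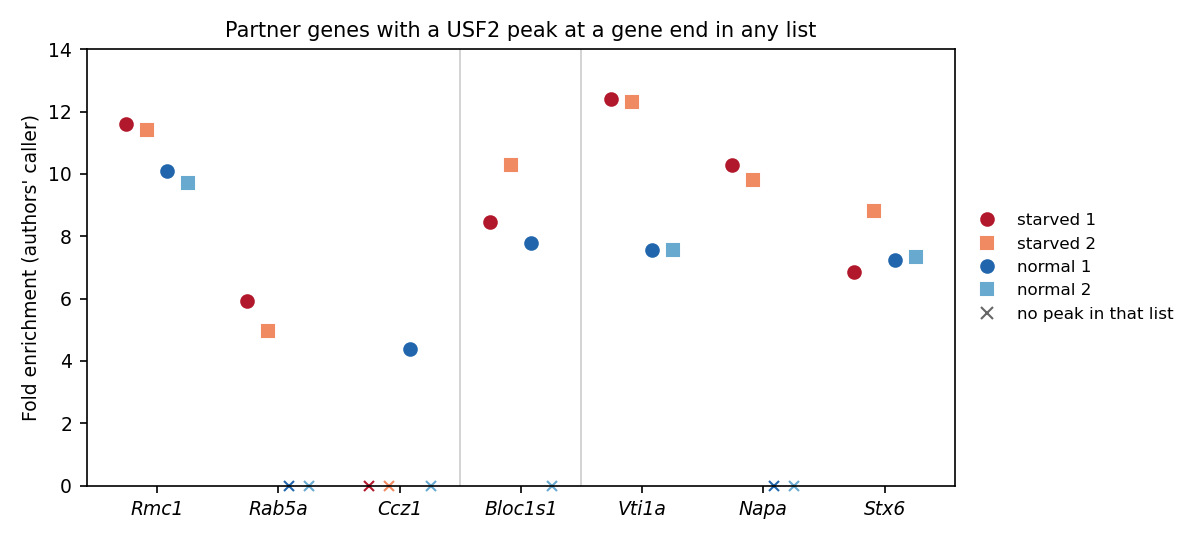
Fold enrichment of USF2 peaks at the 7 called partner genes in each list, starved lists (red) left of normal lists (blue), grouped as GTPases with exchange factors, adaptor and SNARE machinery; crosses on the axis mark a list without a peak. Rmc1, Vti1a and Stx6 have a value in all 4 lists, and Rab5a and Napa in the starved lists alone.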

How the data were processed

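Per the submitters' processing notes the build was GRCm38 and the tools were MACS2 2.2.7.1, Bowtie2 2.5.1 and deepTools 3.5.1. Their roles, their parameters and any use of inputs as control are not given in the sources used here. The authors deposited 1 peak list per USF2 library, with a fold enrichment ratio, −log10 p and −log10 q per peak, and a score equal to −log10 q multiplied by 10 and truncated. Of the peaks, 8 of starved 2 on unplaced scaffolds were left out. Reads at a summit were recovered as the whole number whose fold, (reads + 1)/(background + 1), and Poisson tail matched the deposited −log10 p; every peak matched within 0.001. Gene spans and promoter windows came from RefSeq (GRCm38.p6). Where a list had several peaks at a gene, the one with the highest −log10 q was to be taken; each called gene had 1. Ranks are by fold enrichment, ties sharing the best rank. Genes named are the 8 members, neighbours of their regions, the called partner genes and the 3 most similar genes per member. An exact permutation test planned between the 2 starved and 2 normal lists is not reported, since the lists of a condition count as 1 sample. The members, lists and tests were chosen with earlier results of these data known. Python 3.11.15, pandas 2.3.3, numpy 2.4.6, scipy 1.17.1 and matplotlib 3.10.9 were used, and the steps were tested on simulated data.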

Additional observations from a re-analysis of the deposited data

How the results depend on the processing

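The counts of called HOPS and CORVET genes stayed within 1.5 times of the reported values under every alternative tried: windows of 500 and 5000 bp, peaks with −log10 q of at least 5, lists cut to the 825 best peaks, any base of a peak in place of its summit, peaks inside genes counted, a call in at least 1 list per condition, and each list left out in turn. The wider window, any base, inside peaks and a call in at least 1 list cannot lower a count. Leaving out a list cannot lower the counts in both lists of a condition or in all 4. The narrower window, the −log10 q limit and the cut lists could lower them. No share of all genes was computed for the alternative counts. With −log10 q of at least 5, Vps16 was no longer called and the normal and any-list counts were 3. The partner count in both normal lists ranged from 3 to 5 when a list was left out, with 5 without normal replicate 2, since the other list then decides alone. The same alternatives were applied in full to the partner counts after seeing the data. The normal count was then also 5 with peaks inside genes counted (Nsf and Stx8 joined) and 5 with a call in at least 1 normal list (Bloc1s1 and Ccz1 joined). The count in any list was 10 instead of 7 with peaks inside genes counted, and the count in all 4 lists was at most 4. Peaks inside the gene in some list occurred at 6.65% of all protein-coding genes, so these additions are not particular to the partners. Those inside Nsf and Stx8 held 3 and 5 reads. The difference in called members per list, starved minus normal, was recomputed only with each list left out, and stayed at -1.0. It rests on Vps16. With −log10 q of at least 5, both starved lists called 3 members and both normal lists also called 3. Ranked by −log10 q, the percentiles of member peaks moved by between -6.9 and 9.9 points. With a reciprocal overlap of 50%, the peaks of Vps8 still overlapped in 2 of 6 pairs of lists, those of Vps33a in 4 and those of Vps11 in 6. Pileups of 9 to 33 reads limit the precision of every value given. No paired analysis was possible because the values come from peak calls without a fitted test, and the labels do not say what the shared replicate numbers mean.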

Other observations

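Peaks away from gene ends touched none of the 8 genes, but normal 2 had a peak 5648 bp upstream of Vps8 (chr16:21417407-21417558; fold enrichment 4.35). Among the partner genes, starved 2 had a peak inside Rubcn, a negative regulator of autophagosome maturation (fold enrichment 5.29, 9339 bp from an end). Both normal lists had a peak inside Stx8, a late endosomal SNARE (5.28 in both lists, 5 reads), and inside Nsf, the ATPase that takes SNARE complexes apart (3.64 in both lists, 3 reads). At Stx8 and Nsf the peaks of the normal lists had the same start and the same end. At the members, an identical edge was found for Vps33a in the normal lists, for Vps11 in the starved lists, and for Vps11 between starved 2 and normal 2. Over all overlapping peak pairs an identical start or end occurred in 21.7% of the starved pair, 44.7% of the normal pair and 0.291% to 1.12% of pairs across conditions.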
